A study of Mus musculus with 8 samples.

Results

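Matrix proteases and their inhibitors were examined in muscle stem cells as 84 protein-coding genes of 21887 on the build mm10. They were chosen by symbol alone: every numbered Mmp, Timp, Adam, Adamts and Adamtsl gene. H3K27ac, the acetylated histone H3 of active promoters and enhancers, had been mapped by ChIPmentation, in which antibody-bound chromatin is tagmented to make the library. The activated satellite cells, abbreviated ASC, were taken from skeletal muscle of C57BL/6 mice at 2.5 days after a BaCl2 (barium chloride) injury. The FISC, or freshly isolated satellite cells, were from untreated muscle of that strain. Each condition had 2 H3K27ac libraries and 2 inputs. The peak lists of the 4 H3K27ac libraries were used. The labels give neither the age of the mice nor whether replicates were separate animals, so the p-values reflect a spread between samples that may be purely technical.

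Matrix metalloproteinases (MMPs) and ADAMTS enzymes are zinc proteases that cut collagens, laminins and proteoglycans of the extracellular matrix, while most membrane-bound ADAMs shed the outer parts of cell-surface proteins. TIMPs are secreted proteins that bind the active site and block these enzymes. In skeletal muscle, satellite cells lie under a basal lamina, and matrix proteolysis is part of the remodelling that follows injury.

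For each gene, the length under peaks was measured in 3 places: within 2 kb of either gene end, in the gene body between these windows, and in the flanks from 2 to 50 kb outside the gene. Flanks were counted whatever other gene lies there, and end windows of some members are shared with neighbouring genes, from which they cannot be told apart there. The ASC lists were longer throughout the genome, with 50154 and 54700 peaks over 49.2 and 57.7 Mb in the ASC libraries, against 45014 and 43092 peaks over 34.4 and 33.7 Mb in the FISC libraries. A member gaining length in ASC therefore has to be read against all genes. The lists hold no read counts, so the read depth behind a peak is unknown. Satellite cell markers were present, with 7 of 8 genes covered at their ends in each ASC library and 8 in each FISC library. The fibroblast genes Pdgfra, Dcn, Lum and Clec3b were uncovered at their ends in all 4 libraries, as were the leukocyte genes Ptprc, Adgre1, Itgam and Lyz2. The other genes of these lists were covered at their ends. Dpt and Col15a1 among the fibroblast genes, and Spi1 and Cd68 among the leukocyte genes, were covered there in all 4 libraries. Ly6a and Pi16 were covered in both ASC libraries only, and Csf1r and Laptm5 in a single ASC library each. In bulk samples, fewer cells of a type and less signal per cell cannot be told apart.

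The proteases and inhibitors gained acetylated length mostly inside and beside the genes, and little at their ends, the same order of places as over all protein-coding genes. The whole lists also grew, with a mean of 53.4 Mb covered in ASC and 34.0 Mb in FISC. Over all 84 genes the covered length at ends summed to 67.2 and 75.8 kb in the ASC libraries, against 62.4 and 63.4 kb in the FISC libraries (ratio of means 1.14, and 1.27 over all protein-coding genes). In bodies the sums were 95.7 and 119.4 kb in ASC and 56.4 and 56.3 kb in FISC (ratio 1.91, and 1.67 over all genes). In flanks they were 239.2 and 278.4 kb in ASC and 167.7 and 165.8 kb in FISC (ratio 1.55, and 1.46 over all genes). In each place the lower ASC library exceeded the higher FISC library. Whether the ratios of the members differ from those of all genes was not tested.

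Every member was accounted for. Peaks lay in at least 1 of the 3 places at 63 members, and 21 had none in any library. These 21 are mostly germline ADAMs such as Adam24 and Adam29, and MMPs of a cluster on chromosome 9. Genes covered in at least 2 libraries were tested with limma over all genes, at an adjusted p under 0.05. At gene ends 43 members were tested, of which 9 were higher in ASC (26.5% of all genes tested) and 5 lower (3.61% of all genes tested). The median difference, ASC minus FISC, was +0.0135 kb over the members and +0.3035 kb over all genes tested. In bodies 13 of 34 were higher (42.8% of all genes) and 4 lower (9.73% of all genes), with medians of +0.668 kb over the members and +0.526 kb over all genes. In flanks 24 of 56 were higher (46.0% of all genes) and 3 lower (5.71% of all genes), with medians of +1.21 and +0.963 kb. At least 1 call was made at 39 members. Adamts6 alone was higher in all 3 places, and 3 genes, Adam22, Adam32 and Adamtsl3, were higher in one place and lower in another.

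The balance of directions depended on the length of the lists. When covered length was divided by each library's total, 5 of 43 members were higher and 22 lower at ends. In bodies the counts were 12 and 7 of 34, and in flanks 16 and 18 of 56. Over all genes, 1188 were higher and 4735 lower of 12924 at ends, and 2352 and 1335 of 6528 in bodies. In flanks 3912 and 4965 of all 15985 genes were higher and lower. The medians of all genes moved to -0.345, +0.157 and -0.259 kb. Lists were also trimmed to their strongest peaks at equal covered length. At ends 4 of 38 members were then higher and 14 lower, against 1908 and 1580 of all 12103 genes. In bodies the counts were 2 and 8 of 26, against 992 and 1598 of all 5064 genes. In flanks they were 8 and 14 of 50, against 2698 and 3096 of all 14678 genes. Timp1, Adamts4 and Adamts6 were higher at their ends on all 3 scales, and Mmp2, Adamts15, Adamts8 and Adam22 were lower on all 3. With peaks of fold enrichment of at least 5, however, the end calls of Adam22 and Adamts8 were not kept. At equal covered length the members still higher in bodies were Adam12 and Timp2, and in flanks Adamts6, Adam8, Adam19, Mmp24, Adamts16, Adamtsl3, Adam11 and Adam3. Divided by the total, the end differences of Adam9, Adam12, Adam17, Adamts1, Adamts7, Adamts14, Mmp24 and Timp2 turned negative, and at equal covered length so did the body differences of Adam9, Adam19 and Adamts12 and the end difference of Adamtsl5. Adamts15 and Adamts8 are neighbours, so their counts are not independent.

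**Figure D1:**
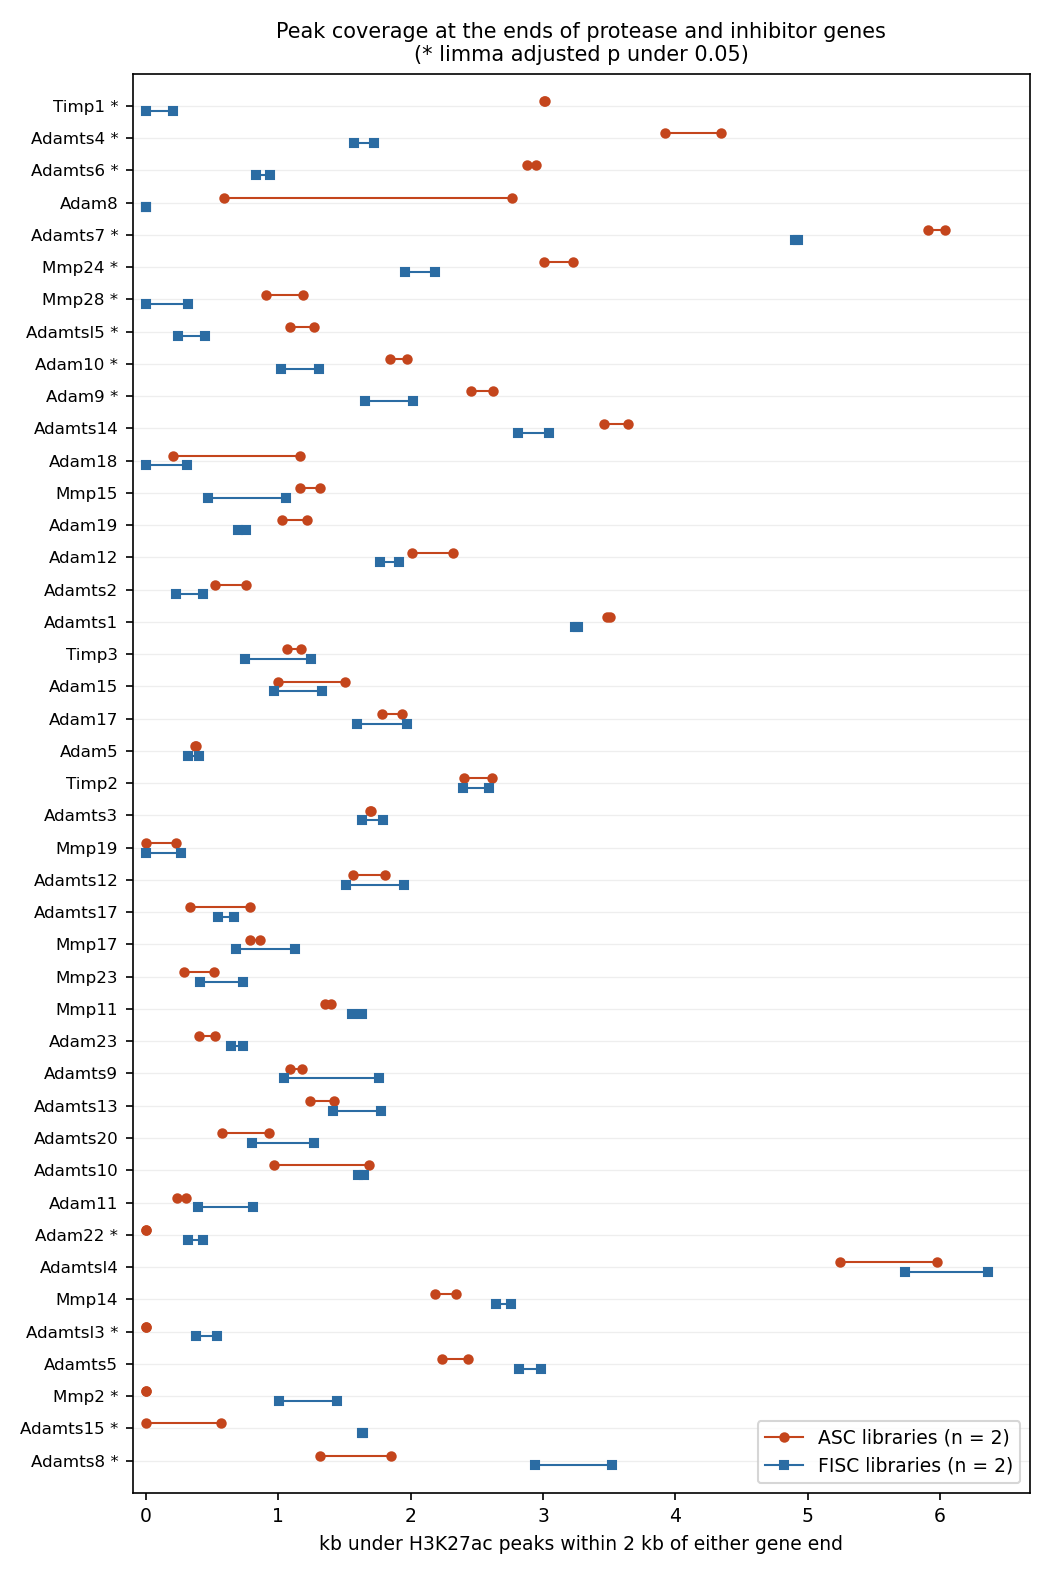
Length under H3K27ac peaks (kb, horizontal axis) within 2 kb of either end of the 43 tested genes, one row per gene, with 1 point per library, ASC circles drawn above FISC squares and a line joining the libraries of a condition. Asterisks mark a limma adjusted p under 0.05: Timp1, Adamts4 and Adamts6 lie farthest to the right in ASC relative to FISC, and Mmp2, Adamts15 and Adamts8 farthest to the left.

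Among the inhibitors, Timp1 gained a covered start site in ASC. Timp1 (chrX:20870166-20874737), a secreted inhibitor of most MMPs, lies on the plus strand inside the synapsin gene Syn1. Its ends had 3.02 and 3.01 kb under peaks in the ASC libraries, against 0.206 and 0 kb in the FISC libraries (difference 2.91 ± 0.135 kb, SE, adjusted p = 0.00193). The ASC libraries were alike and far above both FISC libraries. Its start site lay under a peak in both ASC libraries, of 1.83 and 2.97 kb with the authors' fold enrichments of 18.9 and 16.6, and under none in FISC. The single FISC peak in these windows, in replicate 1, did not reach the start site. The call held with any one library left out (highest adjusted p = 0.0334, with FISC replicate 2 left out), unless the genes of the fit of all 4 libraries were kept, as described for gene ends below.

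Timp2, which inhibits MMPs and also takes part with Mmp14 in activating the Mmp2 proenzyme, was called higher in its body, with no call at its ends. Its ends (chr11:118301061-118355411, minus strand) had 2.40 and 2.62 kb in ASC and 2.60 and 2.39 kb in FISC (difference 0.0135 ± 0.163 kb, adjusted p = 0.956). The 4 values overlapped. The gene Cep295nl overlaps Timp2, and length shared by both genes cannot be assigned to either. In the body Timp2 had 14.6 and 16.9 kb in ASC, against 7.77 and 7.24 kb in FISC (difference 8.26 ± 1.21 kb, adjusted p = 0.0113), and the conditions did not overlap. That call was kept on both other scales and lost without either FISC library. After division by the total, its ends (difference -1.14 kb, adjusted p = 0.00682) and flanks (-3.34 kb, 0.00236) were called lower. The gene and its end windows held 11 and 12 peaks in ASC and 13 and 14 in FISC, and the widest was 3.47 and 5.09 kb in ASC, against 2.73 and 2.33 kb in FISC.

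Timp3, an inhibitor that binds the matrix and blocks Adam17 and aggrecanases, had ends of 1.06 and 1.17 kb in ASC and 0.745 and 1.25 kb in FISC (adjusted p = 0.648), so the conditions overlapped. In its body the values were 0.857 and 0.829 kb in ASC and 0.847 and 0.795 kb in FISC (adjusted p = 0.894). With stricter peaks its body was called lower, by limma, at −log10 q of at least 5 (difference -0.711 kb, adjusted p = 0.0166), at fold enrichment of at least 5 (-0.655 kb, 0.00795) and at equal covered length (-0.821 kb, 0.00498), and its ends were lower at equal covered length (-0.995 kb, 0.0318). Timp4, an inhibitor known from heart and muscle, had no covered end or body in any library. Its flanks, which include sequence of the host gene Syn2, had 1.89 and 3.68 kb in ASC, against 0.798 and 1.12 kb in FISC (difference 1.83 ± 0.565 kb, adjusted p = 0.0370). That call was lost at equal peak number, at equal covered length, after division by the total, and when ends of other genes were left out of the flanks.

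Promoters are shown for genes that stand for 3 patterns, chosen after their values were seen: Timp1, covered in ASC only, Timp2 and the aggrecanase gene Adamts1, covered in all 4 libraries, and the stromelysin Mmp3 and the collagenase Mmp13, covered in none. Each runs from 250 bases before to 50 after the start site (RefSeq, GRCm38.p6, 5′ to 3′ on the gene's strand). Timp1 lies at chrX:20869916-20870215 on the plus strand, Timp2 at chr11:118355362-118355661 on the minus strand, Adamts1 at chr16:85803064-85803363 on the minus strand, Mmp3 at chr9:7445572-7445871 and Mmp13 at chr9:7272264-7272563, both on the plus strand. Capitals mark letters searched on both strands: TGANTCA (AP-1), CAGCTG (an E-box), TGTGGT (Runx) and GGAATG (Tead).
Timp1: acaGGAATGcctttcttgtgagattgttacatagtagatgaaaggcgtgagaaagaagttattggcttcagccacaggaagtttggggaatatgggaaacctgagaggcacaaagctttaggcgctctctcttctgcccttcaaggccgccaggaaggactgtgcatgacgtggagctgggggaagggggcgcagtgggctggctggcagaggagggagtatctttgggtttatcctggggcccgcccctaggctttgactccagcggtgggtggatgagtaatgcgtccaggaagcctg
Timp2: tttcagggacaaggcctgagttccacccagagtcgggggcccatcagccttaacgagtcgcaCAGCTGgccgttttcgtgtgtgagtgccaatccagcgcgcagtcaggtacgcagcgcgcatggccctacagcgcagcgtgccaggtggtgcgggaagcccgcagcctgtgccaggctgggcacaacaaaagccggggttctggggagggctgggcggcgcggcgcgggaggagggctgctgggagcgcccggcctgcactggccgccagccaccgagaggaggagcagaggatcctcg
Adamts1: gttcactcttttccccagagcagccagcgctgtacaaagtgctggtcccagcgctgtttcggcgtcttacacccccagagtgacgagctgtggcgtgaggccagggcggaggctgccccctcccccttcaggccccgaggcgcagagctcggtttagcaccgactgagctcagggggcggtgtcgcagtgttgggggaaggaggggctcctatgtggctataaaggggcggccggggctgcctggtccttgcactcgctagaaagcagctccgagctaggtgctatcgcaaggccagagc
Mmp3: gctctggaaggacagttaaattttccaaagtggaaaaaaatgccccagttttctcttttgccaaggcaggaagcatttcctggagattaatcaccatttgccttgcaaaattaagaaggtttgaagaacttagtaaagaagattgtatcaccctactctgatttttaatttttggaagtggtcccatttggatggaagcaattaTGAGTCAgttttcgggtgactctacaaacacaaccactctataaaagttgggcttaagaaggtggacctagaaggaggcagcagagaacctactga
Mmp13: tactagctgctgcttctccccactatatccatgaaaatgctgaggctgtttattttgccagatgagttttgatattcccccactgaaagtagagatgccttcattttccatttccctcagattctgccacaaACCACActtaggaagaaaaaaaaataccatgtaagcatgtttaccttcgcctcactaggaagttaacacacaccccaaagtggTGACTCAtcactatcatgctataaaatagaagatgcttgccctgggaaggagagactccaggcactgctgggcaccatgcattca
The AP-1 letters stand at position -46 of Mmp3 and -35 of Mmp13, counted from the start site, with the Runx letters of Mmp13 on the other strand at -118. The E-box letters of Timp2 stand at -188 and the Tead letters of Timp1 at -247, and Adamts1 holds none of the 4. Of the 58 promoters of 53 members with a strand, 22.4% held the AP-1 letters, against 7.81% of all 32851 promoters. These were 13 promoters, most of them at 8 genes of the uncovered MMP cluster on chromosome 9. The others were at Adam19, Adam1b, Adam20, Adam25 and Adam29, of which only the Adam19 start site was covered. The E-box letters were in 19% and 16.3%, the Runx letters in 20.7% and 16.8%, and the Tead letters in 6.9% and 14.7%. A match describes the letters and no binding.

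Of the 53 members with a strand, 18 had a start site under a peak in each ASC library, against 18 in FISC replicate 1 and 17 in FISC replicate 2. In all 4 libraries this held for 10 (18.9%, against 41% of 17492 protein-coding genes with a start site in the same table), among them the membrane-type protease Mmp14 and the sheddase Adam17. It held for Timp1 and the matrix protein gene Adamtsl5 in both ASC libraries only (3.77%, against 3.64% of all), for Adamts17 and Adamtsl3 in both FISC libraries only (3.77%, against 0.755% of all), and for 9 in another mixture. The remaining 30 (56.6%, against 44.7% of all) had no start site under a peak in any library.

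**Figure D2:**
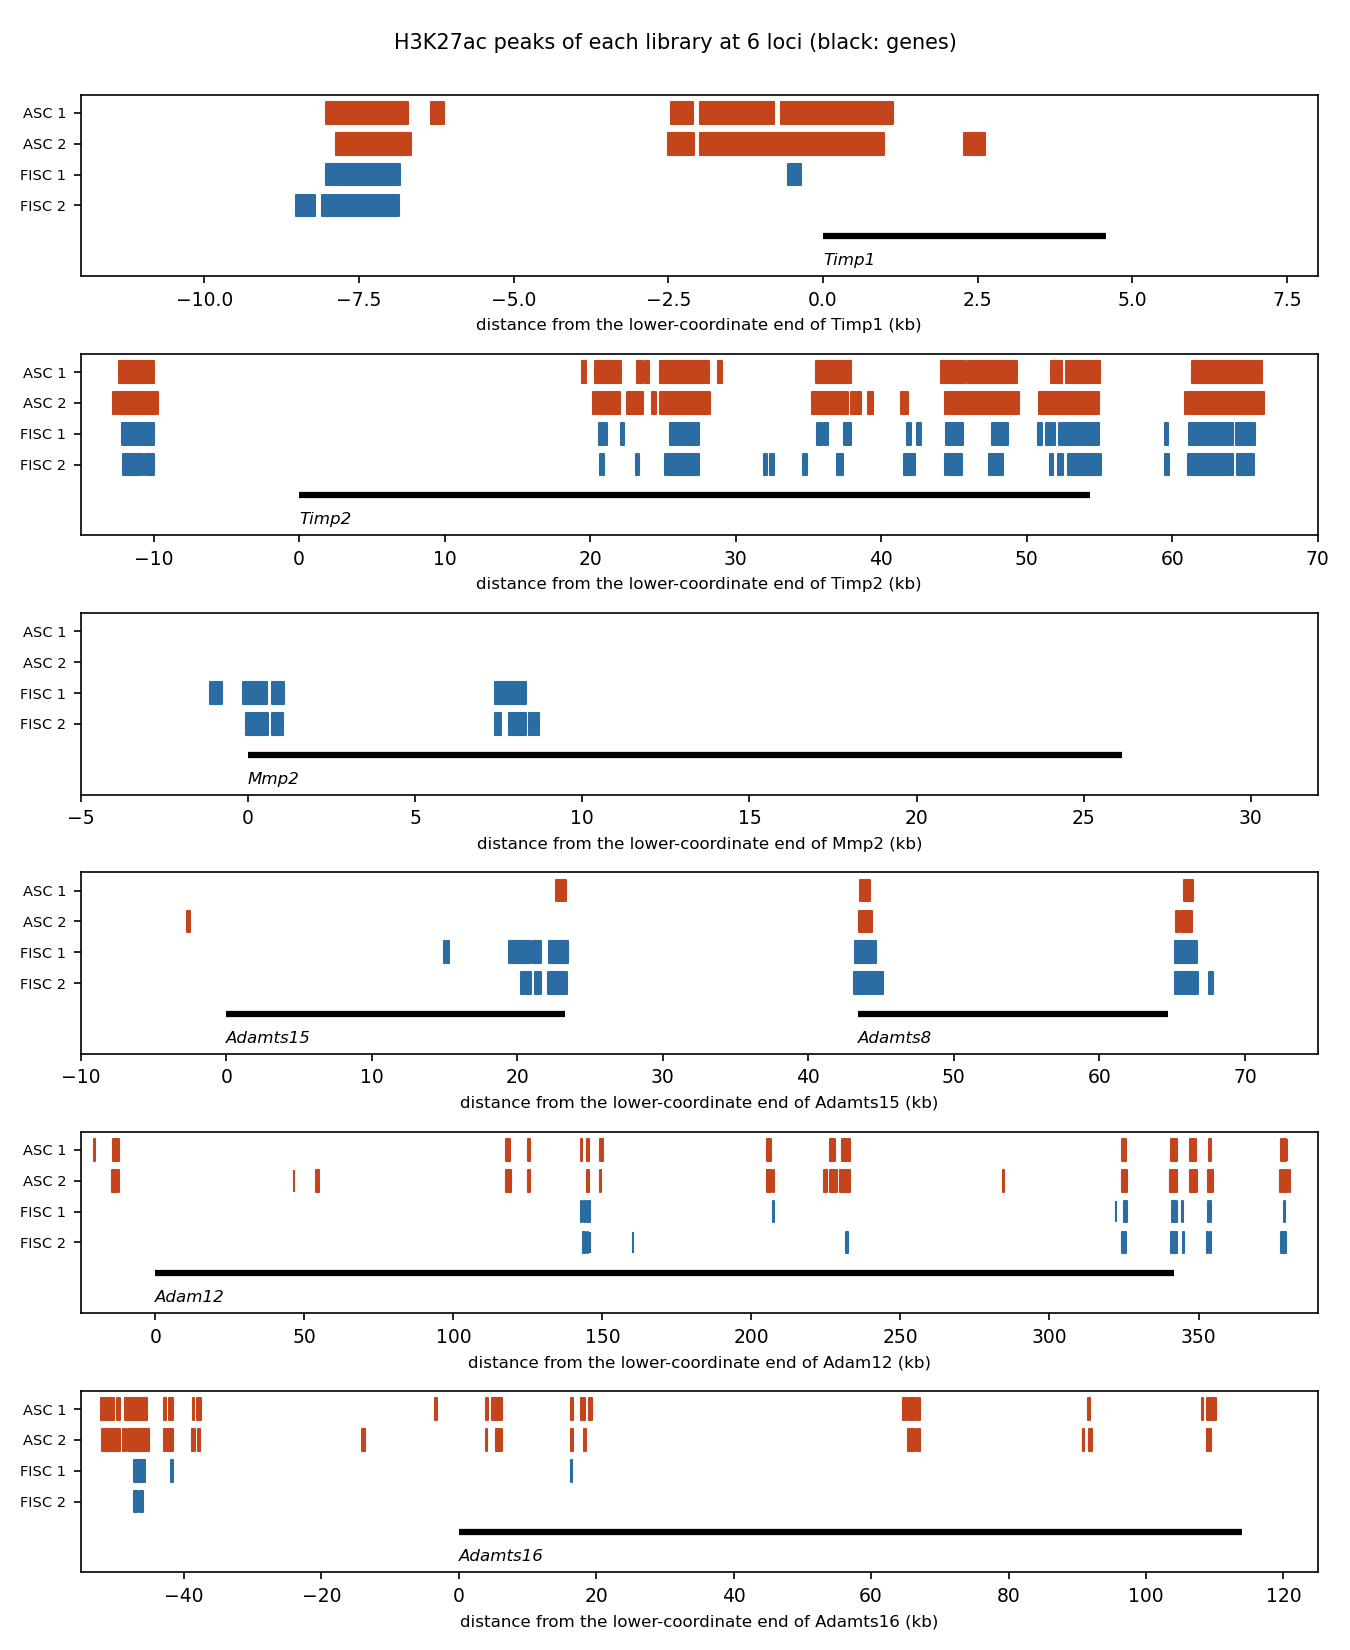
H3K27ac peaks of each library (ASC rows above FISC rows) at 6 loci, in kb from the lower-coordinate end of the named gene, with black bars for the genes. The loci were chosen after their values were seen. Timp1 has wide peaks at its left end in ASC only, Mmp2 has peaks in FISC only, and Adam12 and Adamts16 have more peaks inside the gene in ASC.

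Of the gelatinases, Mmp2 lost all its peaks. Mmp2 (chr8:92827290-92853421), gelatinase A, cuts denatured collagen and type IV collagen of basement membranes. At its ends the ASC libraries had 0 and 0 kb, against 1.44 and 1.01 kb in the FISC libraries (difference -1.22 ± 0.165 kb, adjusted p = 0.00889). In its body they had 0 and 0 kb in ASC, against 0.922 and 0.984 kb in FISC (difference -0.953 ± 0.0807 kb, adjusted p = 0.00495). With peaks of −log10 q of at least 5, or fold enrichment of at least 5, its body was covered in fewer than 2 libraries and not tested. Its end call was kept at both settings, with differences of -1.04 and -0.695 kb. Its 3 FISC-specific regions lay at chr8:92827143-92827892, chr8:92828014-92828367 and chr8:92834669-92835603, the last 7.38 kb inside the gene. With either FISC library left out, Mmp2 was covered in 1 library and removed by the filter, and with the genes of the fit of all 4 libraries kept both calls were lost. Mmp2 is also made by fibroblasts, whose 8 markers summed at ends to 3.29 and 4.66 kb in ASC and 3.66 and 3.87 kb in FISC. In bodies they summed to 7.27 and 8.58 kb in ASC, against 12.1 and 12.5 kb in FISC. At ends Ly6a was higher and Dpt lower. In bodies Pdgfra was higher and Col15a1 lower by limma (Col15a1 difference -2.94 kb, adjusted p = 0.0122). In flanks Dcn and Clec3b were higher and Dpt was lower by limma (Dpt difference -2.81 kb, adjusted p = 0.00816). There the 8 markers summed to 25.427 and 28.147 kb in ASC, against 18.854 and 23.498 kb in FISC. The part of these genes in the Mmp2 result was not tested. Mmp9, gelatinase B, had no covered end, and its flanks had 2.19 and 2.56 kb in ASC and 3.08 and 2.52 kb in FISC (adjusted p = 0.320).

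The collagenases and most stromelysins were uncovered in both conditions. A cluster of 10 MMP genes spans 427 kb of chromosome 9 (chr9:7272514-7699585) and holds collagenases (Mmp13, Mmp8, Mmp1a and Mmp1b), stromelysins (Mmp3 and Mmp10), the elastase Mmp12, the matrilysin Mmp7, and Mmp20 and Mmp27. The whole span had 0 and 0.253 kb under ASC peaks, against 0.294 and 0.338 kb under FISC peaks. None of the 10 had a covered end or body, and 3 shared a small peak in their flanks. Letters of the AP-1 motif stood in a promoter of 8 of the 10. Mmp11, stromelysin 3, lies outside the cluster and had ends of 1.40 and 1.35 kb in ASC and 1.56 and 1.63 kb in FISC (difference -0.220 ± 0.120 kb, adjusted p = 0.213).

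Of 6 membrane-type MMPs, which act at the cell surface, 1 of 4 tested was higher at ends and 2 of 5 in flanks, near the 26.5% and 46.0% of all genes. Mmp14, which activates the Mmp2 proenzyme and cuts fibrillar collagen, had ends of 2.19 and 2.34 kb in ASC and 2.65 and 2.76 kb in FISC (difference -0.442 ± 0.146 kb, adjusted p = 0.0765). Both ASC values lay below both FISC values, and the difference did not pass. Mmp15, another membrane-type MMP, rose in its flanks, with 4.72 and 5.48 kb in ASC and 2.01 and 1.96 kb in FISC (adjusted p = 0.00188), a call lost at equal covered length. Mmp24, best known from neurons, rose at its ends (3.01 and 3.23 kb in ASC, against 2.19 and 1.95 kb in FISC, adjusted p = 0.0138). All of that length lay at the end of its last exon, in a window shared with the translation factor gene Eif6, and its start site was uncovered in all 4 libraries. The call was lost without either FISC library, and the difference became -0.0964 kb after division by the total. Mmp28, a secreted MMP known from epithelia, rose with smaller values (0.903 and 1.19 kb in ASC, against 0 and 0.313 kb in FISC, adjusted p = 0.0186), and that call was lost on leaving out ASC replicate 2 (0.0592) or either FISC library.

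Sheddases of the ADAM family were called higher in each of the 3 places. Of 9 ADAMs with an active protease site outside the germline, 2 of 7 tested were higher at ends (26.5% of all genes), 4 of 6 in bodies (42.8%) and 4 of 8 in flanks (46.0%), and no tested one was called lower. Their body lengths summed to 32.6 and 43.0 kb in ASC, against 13.8 and 13.3 kb in FISC (ratio 2.79, and 1.67 over all genes). Adam12 (chr7:133883199-134225097), meltrin alpha, is expressed by myoblasts in regenerating muscle. In its body it had 10.1 and 13.3 kb in the ASC libraries, against 2.95 and 3.01 kb in the FISC libraries (difference 8.71 ± 1.27 kb, adjusted p = 0.0111). At its ends the values were 2.01 and 2.32 kb in ASC and 1.77 and 1.91 kb in FISC (adjusted p = 0.188). The conditions did not overlap in either place, and the gain passed the test in the body and in the flanks (6.13 and 8.06 kb in ASC, against 1.32 and 2.27 kb in FISC, adjusted p = 0.00226).

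Adam12 had 10 ASC-specific and 3 FISC-specific regions, a region being a merged stretch of peaks of the 4 lists, and specific meaning seen in both libraries of a condition and neither of the other. The widest ASC-specific region of its body was chr7:134088267-134089836, at 135 kb from the nearer gene end. Adam19, meltrin beta, which sheds neuregulins, had a body of 16.1 and 20.5 kb in ASC, against 9.73 and 10.03 kb in FISC (difference 8.44 ± 1.99 kb, adjusted p = 0.0328). Its difference became -1.88 kb at equal covered length. Its flanks had 7.05 and 7.44 kb in ASC, against 1.82 and 1.48 kb in FISC (adjusted p = 4.8e-04), a call kept on both other scales and without each library. Without either FISC library the body calls of Adam12 and Adam19 were both lost.

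Adam10, the protease that sheds Notch receptors, rose at its start site end (1.84 and 1.97 kb in ASC, against 1.02 and 1.31 kb in FISC, adjusted p = 0.0259) and in its body (1.80 and 2.06 kb in ASC, against 0 and 0 kb in FISC, adjusted p = 0.00492). Adam9, a sheddase of growth factors, rose in its body (3.12 and 3.10 kb in ASC, against 0.862 and 0.272 kb in FISC, adjusted p = 0.00682). At its ends Adam9 had 2.62 and 2.46 kb in ASC, against 1.65 and 2.02 kb in FISC (adjusted p = 0.0432), in a window shared with Tm2d2. The end calls of both genes were among those lost on leaving out ASC replicate 2 or either FISC library, and that of Adam9 also on leaving out ASC replicate 1. Without either ASC library the body of Adam10 was covered in 1 library and removed by the filter. With the genes of the fit of all 4 libraries kept, its call held without either ASC library (adjusted p = 0.00177 and 0.00205) and was lost without either FISC library (0.0750 and 0.0739). Adam17, which releases tumour necrosis factor, had ends of 1.78 and 1.93 kb in ASC and 1.59 and 1.97 kb in FISC (adjusted p = 0.768), and Adam15, another membrane protease, had 0.999 and 1.51 kb in ASC and 0.964 and 1.33 kb in FISC (adjusted p = 0.746). Both overlapped between conditions.

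Adam8, a protease best known from leukocytes, differed between its ASC libraries at the ends, with 0.592 and 2.76 kb, against 0 and 0 kb in FISC (difference 1.68 ± 0.701 kb, adjusted p = 0.127). Most of that length lay at its last exon, in a window shared with Spef1l. In its flanks Adam8 had 8.62 and 9.46 kb in ASC, against 3.96 and 2.38 kb in FISC (difference 5.87 ± 0.741 kb, adjusted p = 0.00159), and 8 ASC-specific regions belonged to the locus. When ends of other genes were left out of the flanks the difference was smaller, at 2.28 kb, and the call was kept (limma adjusted p = 0.00811). The 8 myeloid markers summed at ends to 3.94 and 5.41 kb in ASC and 2.60 and 2.36 kb in FISC. Of them 2 were tested at ends and neither passed. In flanks, where Adam8 was called, they summed to 29.576 and 35.001 kb in ASC, against 22.868 and 20.583 kb in FISC. There 3 of 4 tested were higher by limma (46.0% of all genes): Spi1 by 6.60 kb (adjusted p = 0.00513), Csf1r by 2.66 kb (0.00444) and Laptm5 by 1.79 kb (0.00261). In bodies 3 of the markers were tested, and 0 were higher (42.8% of all genes) and 0 lower. The part of the myeloid genes in the Adam8 result was not tested.

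**Figure D3:**
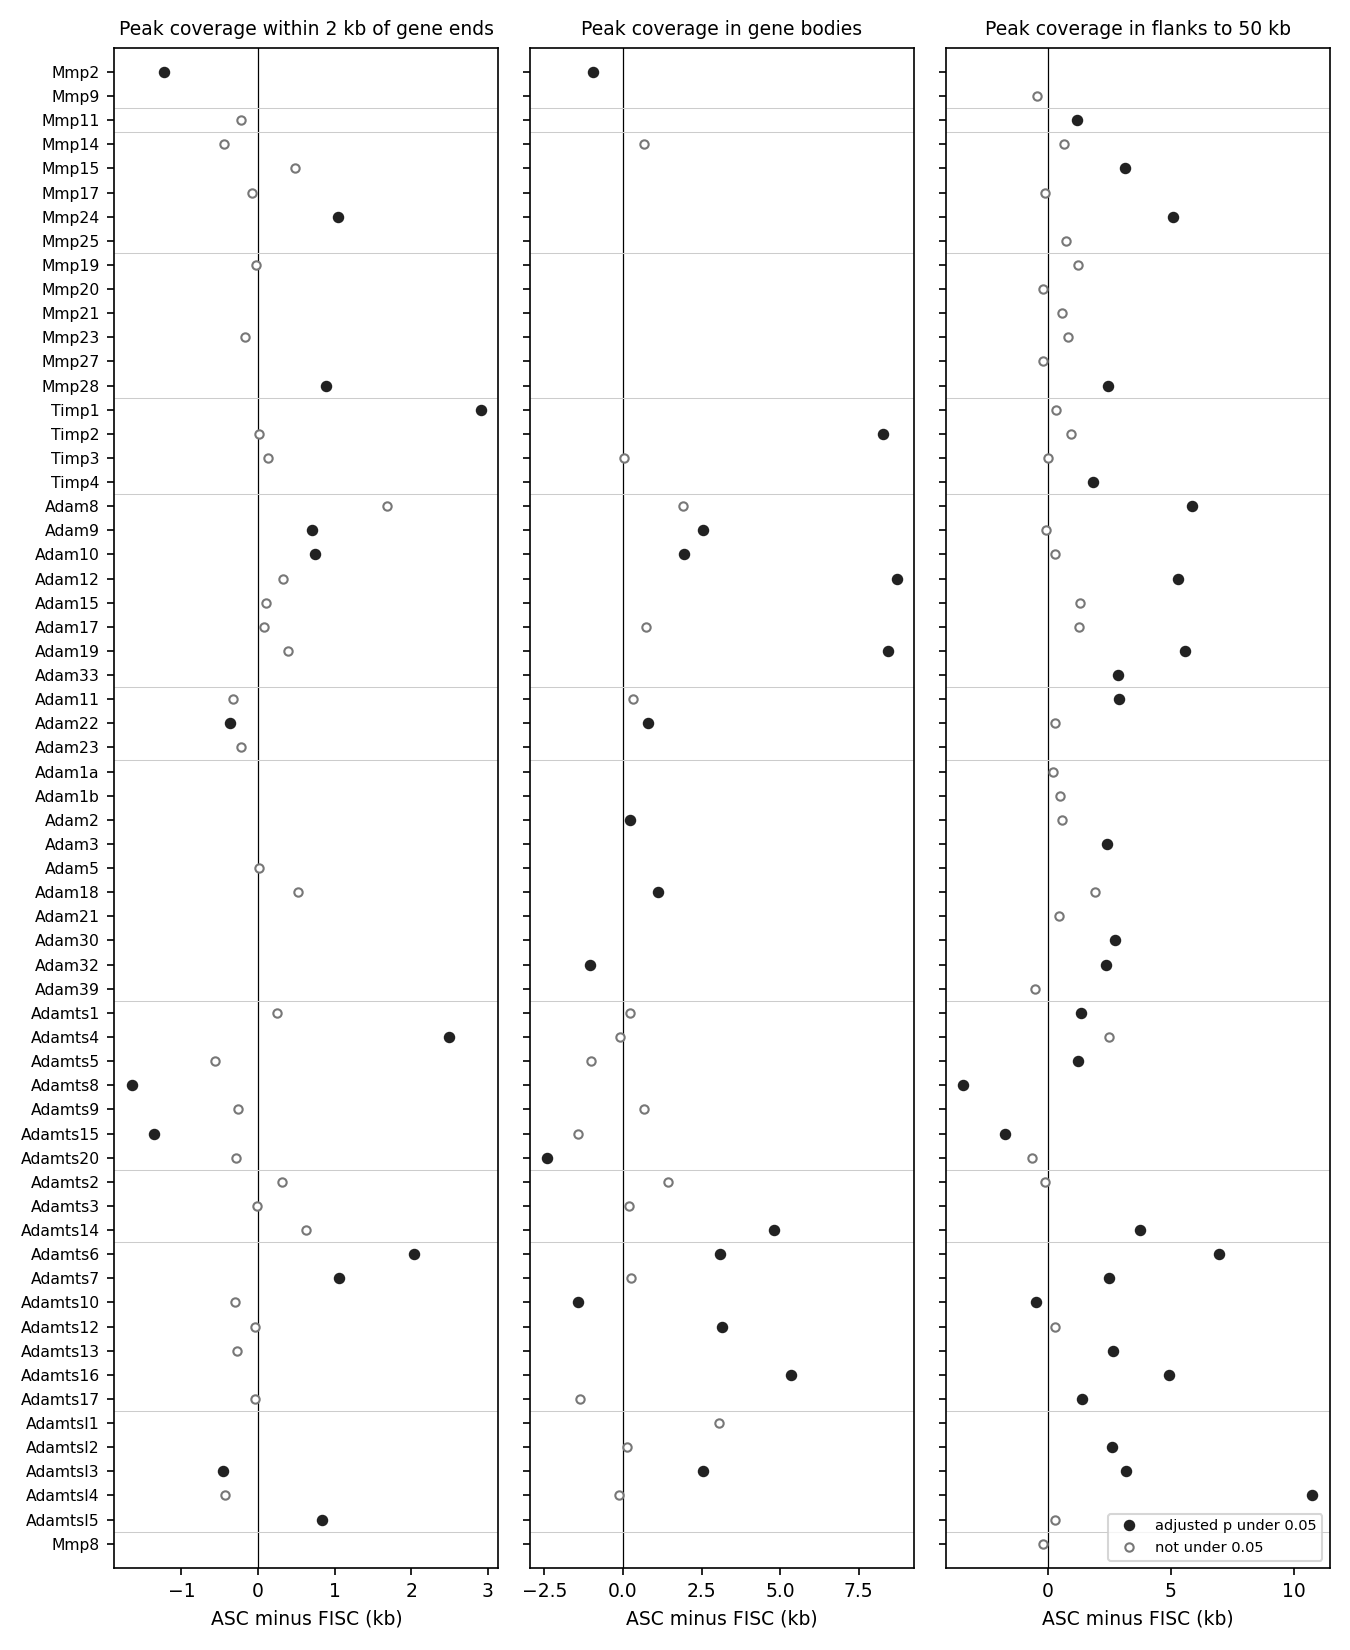
Difference in length under H3K27ac peaks, ASC minus FISC (kb, horizontal axes), for the 62 genes tested in at least 1 place, grouped by role, at gene ends, in gene bodies and in flanks. Filled points have a limma adjusted p under 0.05 and open points do not; Adam12, Adam19 and Timp2 lie above 8 kb in bodies while their ends are open points.

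Proteoglycan-cleaving ADAMTS enzymes moved in both directions. Of 7 genes tested at ends 1 was higher (26.5% of all genes) and 2 lower (3.61% of all genes). Of 6 tested in bodies none was higher (42.8% of all genes) and 1 was lower (9.73%). Of 6 tested in flanks 2 were higher (46.0% of all genes) and 2 lower (5.71%). The 2 lower genes were the neighbours Adamts8 and Adamts15 in both cases. Adamts4 (chr1:171250129-171262267), an aggrecanase, had ends of 3.92 and 4.35 kb in ASC, against 1.72 and 1.57 kb in FISC (difference 2.49 ± 0.201 kb, adjusted p = 0.00323). The aggrecanase and versicanase genes Adamts1 and Adamts5 lie next to each other on chromosome 16. Adamts1 had ends of 3.51 and 3.48 kb in ASC and 3.24 and 3.27 kb in FISC (adjusted p = 0.263). Adamts5 had 2.24 and 2.43 kb in ASC and 2.82 and 2.99 kb in FISC (adjusted p = 0.0529), lower in both ASC libraries without passing. Between them an ASC-specific region of 1.43 kb, at chr16:85826444-85827874, lay in the flanks of both genes, and both were higher there: Adamts1 with 1.26 and 1.45 kb in ASC, against 0 and 0 kb in FISC (adjusted p = 8.4e-04), and Adamts5 with 1.26 and 1.21 kb in ASC, against 0 and 0 kb in FISC (adjusted p = 8.0e-04). The region makes up most of both flank values, and without either ASC library the 2 flanks were covered in 1 library and removed by the filter.

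Adamts8 and Adamts15, which also cut proteoglycans, lie side by side on chromosome 9 and fell together. Adamts15 (chr9:30899155-30922452) had ends of 0.566 and 0 kb in ASC, against 1.63 and 1.64 kb in FISC (difference -1.35 ± 0.208 kb, adjusted p = 0.0121). Adamts8 (chr9:30942562-30963838) had 1.32 and 1.85 kb in ASC, against 2.94 and 3.52 kb in FISC (difference -1.65 ± 0.283 kb, adjusted p = 0.0159). No ASC value reached a FISC value at either gene. The flank of each holds the end windows of the other, so their lower flanks (Adamts8 0.566 and 0.2 kb in ASC, against 4.45 and 3.22 kb in FISC, adjusted p = 0.00162) repeat part of the same peaks. The end call of Adamts15 was lost without either FISC library and that of Adamts8 without FISC replicate 2. With peaks of fold enrichment of at least 5 the end difference of Adamts8 was -1.37 kb and its call was lost (limma adjusted p = 0.211). Adamts20, a versican protease, fell in its body, with 1.15 and 0.940 kb in ASC, against 3.43 and 3.47 kb in FISC (difference -2.41 ± 0.217 kb, adjusted p = 0.00514), and that call held without each library but not without either FISC library when the genes of the fit of all 4 libraries were kept. With peaks of fold enrichment of at least 5 its difference was -0.325 kb and the call was lost (adjusted p = 0.306). The listed start site of Adamts20 (chr15:94404350) lies inside the gene, so peaks there count as body. Within 2 kb of that site lay 1.149 and 0.94 kb in ASC, against 1.166 and 1.259 kb in FISC. In ASC that was the whole body length.

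Procollagen N-proteinases, which trim new fibrillar collagen, changed at Adamts14 away from its ends. Adamts14 had a body of 4.09 and 6.23 kb in ASC, against 0.705 and 0 kb in FISC (difference 4.80 ± 0.851 kb, adjusted p = 0.0172), and its call was lost without FISC replicate 2. Its ends had 3.46 and 3.64 kb in ASC and 3.05 and 2.81 kb in FISC (adjusted p = 0.0547). Adamts2 had ends of 0.517 and 0.755 kb in ASC and 0.430 and 0.224 kb in FISC (adjusted p = 0.132).

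Of the other 9 ADAMTS genes, 2 of 6 tested were higher at ends (26.5% of all genes), 3 of 6 in bodies (42.8%) and 5 of 7 in flanks (46.0%). Adamts10 was lower in its body and its flanks. Adamts6 (chr13:104286518-104496695), a secreted protease studied in heart and skeletal development, had ends of 2.88 and 2.95 kb in ASC, against 0.938 and 0.832 kb in FISC (difference 2.03 ± 0.129 kb, adjusted p = 0.00227). Its body had 3.29 and 2.86 kb in ASC, against 0 and 0 kb in FISC (adjusted p = 0.00479), and its flanks had 7.61 and 8.50 kb in ASC, against 0.793 and 1.39 kb in FISC (adjusted p = 4.6e-04). In all 3 places the ASC values stood well above the FISC values. Without either ASC library its body was covered in 1 library and removed by the filter.

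Adamts16 (chr13:70727798-70841845), a protease studied in the kidney and gonad, had no covered end in any library. In its body the ASC libraries had 6.36 and 4.52 kb, against 0.205 and 0 kb in the FISC libraries (difference 5.33 ± 0.711 kb, adjusted p = 0.00943), a call lost at equal covered length. In its flanks they had 5.64 and 6.62 kb, against 1.48 and 0.931 kb in FISC (adjusted p = 7.5e-04). Of its 23 regions 11 were ASC-specific and 0 FISC-specific, the largest number of ASC-specific regions at any member. The widest was chr13:70793156-70794399 in the gene body.

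Adamts7 and Adamts12, proteases of cartilage oligomeric matrix protein, each had 1 place that rose apart from flanks. At its ends Adamts7 had 5.91 and 6.04 kb in ASC, against 4.93 and 4.91 kb in FISC (adjusted p = 0.0248), much of it in a window shared with Tbc1d2b. That difference became -1.40 kb after division by total covered length, and without either FISC library the call was lost. In its body Adamts12 had 5.02 and 6.09 kb in ASC, against 2.28 and 2.53 kb in FISC (adjusted p = 0.0126), a call lost without either FISC library. Adamts10, a partner of fibrillin microfibrils, fell in its body (0.277 and 0 kb in ASC, against 1.36 and 1.78 kb in FISC, adjusted p = 0.0124).

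ADAMTS-like proteins have no protease domain and bind microfibrils. Adamtsl5 rose at its start site (1.09 and 1.27 kb in ASC, against 0.239 and 0.444 kb in FISC, adjusted p = 0.0121), a call lost without either FISC library. Adamtsl3 fell at its start site (0 and 0 kb in ASC, against 0.379 and 0.532 kb in FISC, adjusted p = 0.0225) and rose in its body (2.22 and 2.87 kb in ASC, against 0 and 0 kb in FISC, adjusted p = 0.00666). Its start site call was lost without either ASC library and removed by the filter without either FISC library, as was its body without either ASC library. The FISC peaks at the start site had fold enrichments of 3.23 and 3.33. With −log10 q or fold enrichment of at least 5, and at equal covered length, Adamtsl3 ends were covered in fewer than 2 libraries and not tested. The body call was lost at fold enrichment of at least 5 (difference 0.917 kb, limma adjusted p = 0.174). At equal covered length the body was not tested. Adamtsl4, a fibrillin-binding protein of the eye, had the largest flank difference of all members, with 29.4 and 34.5 kb in ASC, against 21.4 and 21.1 kb in FISC (difference 10.8 ± 2.31 kb, adjusted p = 0.0106). Its ends overlapped between conditions (5.24 and 5.98 kb in ASC and 6.36 and 5.74 kb in FISC), the flank difference became -1.07 kb after division by the total, and the flank call was lost without either FISC library. Adamtsl2, linked to fibrillin and TGF-beta signalling, had no covered end and rose in its flanks (2.34 and 2.88 kb in ASC, against 0 and 0 kb in FISC, adjusted p = 6.1e-04). That flank call was lost when ends of other genes were left out, and the flanks were removed by the filter without either ASC library.

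ADAMs without an active protease site and ADAMs of the germline had little coverage. Adam22, a receptor of neuronal LGI proteins, fell at its start site end (0 and 0 kb in ASC, against 0.318 and 0.427 kb in FISC, adjusted p = 0.0290) and rose in its body (0.821 and 0.999 kb in ASC, against 0 and 0.221 kb in FISC, adjusted p = 0.0144). The first call was lost without either ASC library and removed by the filter without either FISC library, and the second was lost without ASC replicate 2 and without either FISC library. With peaks of −log10 q of at least 5, or fold enrichment of at least 5, Adam22 ends were covered in fewer than 2 libraries and not tested. The Adam22 body was not tested at fold enrichment of at least 5 or at equal covered length. Of the 21 other ADAMs, 3 had a covered end in any library, and neither of the 2 tested there passed. In bodies 3 of them were covered, of which 2 were higher (42.8% of all genes) and 1 lower (9.73% of all genes). The lower one was the sperm gene Adam32, with 0 and 0 kb in ASC, against 0.961 and 1.11 kb in FISC (adjusted p = 0.00540). Without either FISC library its body was covered in 1 library and removed by the filter.

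Leaving out a library changed the counts. At ends, omitting ASC replicate 1 left 9 members higher and 3 lower, and omitting ASC replicate 2 left 6 and 4. Omitting FISC replicate 1 left 3 and 1, and omitting FISC replicate 2 left 3 and 0. The 3 that stayed higher were Timp1, Adamts4 and Adamts6 in both cases. These fits use genes covered in at least 2 of the 3 remaining libraries, which removes genes such as Mmp2 when a FISC library is left out. If the genes of the fit of all 4 libraries were kept instead, 0 of all 12924 genes were called by limma at ends without either FISC library. Then 10 and 9 members were higher and 7 and 6 lower at an unadjusted p under 0.05, and 294 genes had identical values within each condition, against 70 with the other choice. In bodies, omitting ASC replicate 1 left 13 higher and 4 lower, and omitting ASC replicate 2 left 8 and 5. Omitting FISC replicate 1 left 6 and 2, and omitting FISC replicate 2 left 5 and 2. With the genes of the full fit these last 2 counts were 0 and 0 as well, with 8 members higher and 5 or 6 lower at an unadjusted p under 0.05.

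Merging the 4 lists gave 585 regions in the 84 genes and their flanks. Of these, 102 or 17.4% were ASC-specific, against 19.9% of all 72585 regions, and 32 or 5.47% were FISC-specific, against 7.3%. Another 161 or 27.5% were seen in all 4 libraries, against 26.9% of all regions. The shares of the members are thus close to those of the genome. Of the ASC-specific regions 56 lay in flanks, 40 in bodies and 6 at ends, and of the FISC-specific ones 12, 13 and 7. The 3 places differ in size, and the same split over all regions was not made. Adamts16 had 11 ASC-specific regions, Adam12 had 10, Adam8 had 8, Adamts14 had 7, and Adam19 and Adamts6 had 6 each. On the other side Mmp2 and Adam12 had 3 FISC-specific regions each. At equal covered length 9 regions were ASC-specific and 104 FISC-specific. Without ASC replicate 1 or 2 the ASC-specific regions numbered 216 or 172, and without FISC replicate 1 or 2 the FISC-specific ones numbered 75 or 87, since a lone library then stands for its condition.

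**Figure D4:**
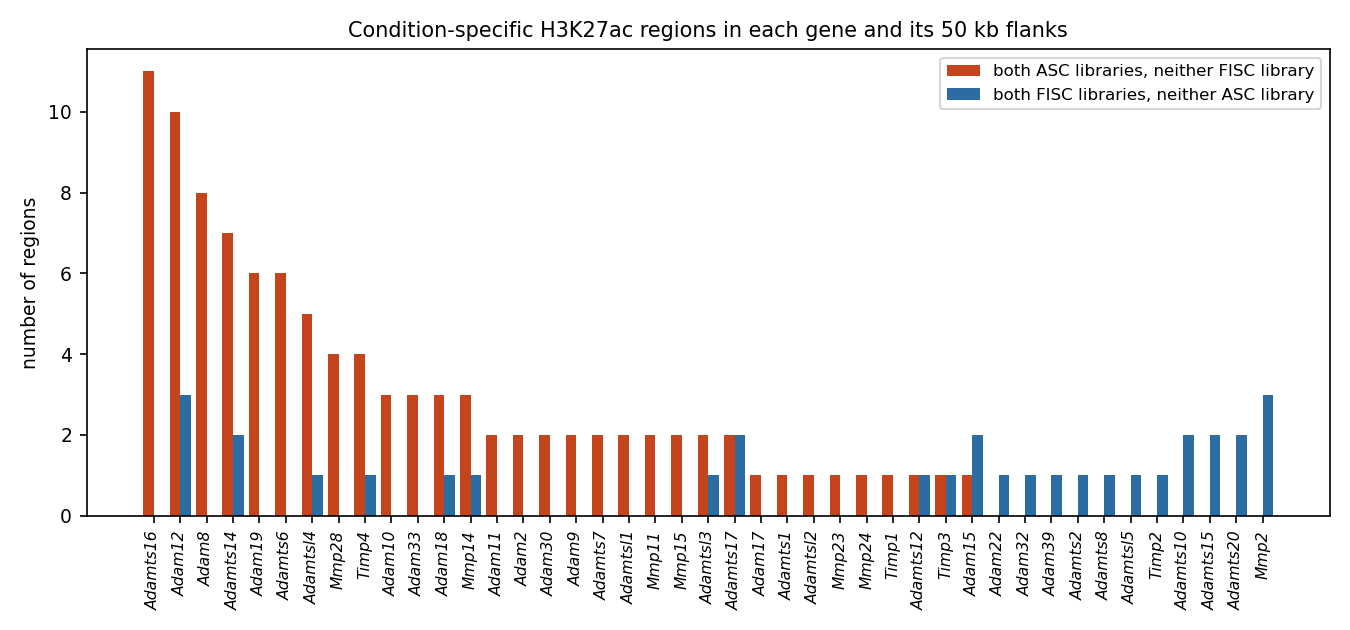
Number of condition-specific H3K27ac regions (vertical axis) in each of 43 genes and its flanks, with ASC-specific counts in the left bar and FISC-specific counts in the right bar of each pair. Adamts16, Adam12 and Adam8 have the most ASC-specific regions and Mmp2 has 3 FISC-specific regions and 0 ASC-specific ones.

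A wider list of 42 genes of extracellular proteolysis and matrix turnover, with plasminogen, cathepsin, convertase, serpin, sulfatase and membrane peptidase genes among them, moved both ways at ends. Of 34 tested, 8 were higher (26.5% of all genes) and 6 lower (3.61% of all genes), with a median difference of +0.144 kb, against +0.3035 kb over all genes. Plaur, the urokinase receptor, had 3.85 and 4.0 kb in ASC, against 2.75 and 2.31 kb in FISC (adjusted p = 0.0115). The cathepsin inhibitor Cstb, the cathepsin Ctsd and the procollagen proteinase enhancer Pcolce2 rose by 1.70, 1.52 and 1.49 kb. Serping1, an inhibitor of complement proteases, fell by 2.51 kb, and the serine proteases Htra3 and Htra1 fell by 2.42 and 0.932 kb. Htra3 also fell in its body and flanks, by 8.04 and 12.1 kb, while Htra1 rose in its body (difference 5.74 kb, limma adjusted p = 0.00624) and in its flanks (difference 1.69 kb, adjusted p = 9.3e-04). The convertase Pcsk5 fell by 0.739 kb (0.890 and 1.25 kb in ASC, against 1.81 and 1.81 kb in FISC).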

How the data were processed

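H3K27ac was measured by ChIPmentation in 2 ASC and 2 FISC libraries. Per the submitters' processing notes, bcl2fastq 2.19, BWA, Picard and MACS2 were the tools and mm10 the build. The sources used here give no version for BWA, Picard or MACS2, no peak-calling settings and no role for the inputs. The authors deposited 1 narrow peak list per H3K27ac library, with a fold enrichment (a ratio to local background), −log10 p and −log10 q values and a score that is 10 times the −log10 q without its decimals. Reads had been made into peaks before deposit, so covered length depends on depth and on the caller's threshold, and depth is unknown. The inputs entered no test.

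Peak length was summed per gene around RefSeq gene positions (GRCm38.p6), at ends (2 kb), in bodies and in flanks (to 50 kb). The gene table has no strand; strand and start sites of 53 members came from RefSeq promoters, and all 84 members were counted with both ends. The limma 3.58.1 fit took genes with a peak in at least 2 libraries (R 4.3.3; eBayes with trend, linear kb, no scaling), was tested on simulated data and used Benjamini-Hochberg adjustment over all genes at 0.05. Regions were merged peaks overlapping by at least 1 base. Tables and figures were made with Python 3.11.15, pandas 2.3.3 and matplotlib 3.10.9.

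Members and lists were chosen with earlier results of these data known. Named genes are up to 10 called members per place and direction by size, the 10 with most covered length at ends, a fixed set of well-known members, and up to 4 called genes per direction of the wider list. Others named (the uncovered cluster, Adam24, Adam29, Adamts17, Mmp11 and Plaur) were chosen after their values were seen. Some results that the rule would name are not reported here. Alternatives were other window and flank sizes, stricter peaks, lists of equal number or covered length, division by total length, log2(kb + 0.1), a lower coverage filter, a replicate block and leaving out each library.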

Additional observations from a re-analysis of the deposited data

How the results depend on the processing

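Counts of called members moved with the length of the lists and, at ends and in bodies, with the genes kept when a FISC library was left out. Trimmed to equal covered length, 4 members were higher and 14 lower in ASC at ends, 2 and 8 in bodies, and 8 and 14 in flanks. Divided by each library's total, 5 were higher and 22 lower at ends, 7 were lower in bodies and 18 lower in flanks. The counts over all genes at both settings were given above beside those of the members. At equal peak number 7 were lower in flanks. Fewer members were lower at ends with windows of 1 kb (3), peaks of −log10 q of at least 5 (3) or fold enrichment of at least 5 (2), and more with windows of 5 kb (9). With flanks of 100 kb 37 were higher, and with flanks of 20 kb 1 was lower. FISC-specific regions fell to 13 with fold enrichment of at least 5, and at equal covered length regions numbered 9 for ASC and 104 for FISC. Apart from left-out libraries, the other settings run moved the counts by at most 1.5 times. The cause of each shift was not tested beyond the construction of the setting.

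With one library left out, the members higher and lower ranged from 3 to 9 and from 0 to 4 at ends, from 5 to 13 and from 2 to 5 in bodies, and from 19 to 25 and from 2 to 3 in flanks. With the genes of the fit of all 4 libraries kept, an alternative chosen after seeing the data, the ranges were 0 to 4 and 0 to 1 at ends, 0 to 15 and 0 to 3 in bodies, and 16 to 26 and 1 to 4 in flanks. One by one, ends then gave 4 higher and 1 lower omitting ASC replicate 1, 4 and 0 omitting ASC replicate 2, and 0 and 0 omitting either FISC library. Bodies gave 0 and 0 omitting either FISC library and 2 lower omitting ASC replicate 2, and flanks gave 1 lower omitting ASC replicate 1. The first choice was run first and the second was added once its results were known, and the cause of the difference was not tested. ASC-specific regions then ranged from 118 to 216 and FISC-specific ones from 37 to 87, also an alternative chosen after seeing the data.

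Replicate numbers are shared between the conditions, but the labels do not say that they pair the samples, and deviations of same-numbered libraries correlated at -0.0231 at ends, 0.0587 in bodies and -0.124 in flanks. With a replicate block 7 members were higher and 4 lower at ends, 14 and 5 in bodies, and 26 and 4 in flanks. With the pairing crossed, chosen after seeing the data, the counts were 11 and 5, 14 and 6, and 26 and 4.

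Differences of single members changed sign 112 times in 1768 values, 29 of them where the value was called under one of the settings, and these 29 follow. Divided by total covered length, differences at ends were -0.591 kb for Adam12, -0.767 for Adam17, -0.261 for Adam9, -1.30 for Adamts1, -0.844 for Adamts14, -1.40 for Adamts7, -0.0964 for Mmp24 and -1.14 for Timp2. In bodies Adamts7 had -1.18 kb. In flanks they were -1.75 kb for Adam15, -0.470 for Adamts14, -0.332 for Adamts7, -1.07 for Adamtsl4, -3.47 for Adamtsl5, -1.35 for Mmp14 and -3.34 for Timp2. At equal covered length Adam19 had -1.88 kb in its body, Adam9 -0.567, Adamts12 -0.0255 and Timp3 -0.821, ends of Adamtsl5 had -0.342 and of Timp3 -0.995, and flanks of Adam32 had -0.924, of Mmp14 -1.10 and of Timp4 -0.371. Timp3 also had -0.711 kb in its body with −log10 q of at least 5 and -0.655 with fold enrichment of at least 5. With flanks of 100 kb Adam9 had 2.71 kb and Adamts1 -0.245.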
